A study of Mus musculus with 3 samples.

Results

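The genes described here encode the core of the inflammasome and of pyroptosis: the sensors Nlrp3, Nlrp1b and Aim2, the adaptor Pycard, the proteases Casp1, Casp4 and Casp8, and the pore-forming protein Gsdmd. They were chosen by name from a list of the pathway, and all 8 were found by gene symbol among the 12880 genes of the deposited tables, each with a value at every time point. Expression was measured by bulk RNA sequencing in lung macrophages of LysM-GFP mice on a C57BL/6 background, aged 6 to 8 weeks, in which the lysozyme M locus drives a green fluorescent reporter that macrophages, monocytes and neutrophils all can carry. Injury was set off with a nebulized saline solution of lipopolysaccharide (LPS), the outer membrane component of Gram-negative bacteria, at 1 mg/ml, and cells that were positive for GFP and CD64 and negative for Ly6g were sorted at 0, 4 and 24 h. The protocol text is the same for all 3 samples, so whether the 0 h animals had inhaled LPS is not known, nor is the number of animals behind a sample. There was 1 library per time point, so no difference below has a replicate check. Words such as higher and lower compare libraries, not conditions. The column headings also name CD11b, a surface marker of recruited myeloid cells that the sorting text leaves out.

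An inflammasome is a protein platform that macrophages assemble in the cytosol when they sense infection or damage. A sensor recruits the adaptor ASC (encoded by Pycard), which gathers caspase-1; the active protease then matures interleukin-1 beta and interleukin-18 and cleaves gasdermin D, whose freed fragment opens pores in the plasma membrane. In the noncanonical route the mouse protease caspase-11, encoded by Casp4, binds cytosolic LPS itself and cleaves gasdermin D directly. In macrophages LPS is known to raise transcription of several of these genes in a priming step that precedes assembly, and assembly and cleavage are events of protein that RNA levels do not show.

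The libraries held 20379236 to 25135476 reads over 12512 to 12849 genes, and levels are given as normalized counts, the reads divided by a size factor that puts the libraries on a common scale. All 6 pan-macrophage markers checked (Csf1r, Adgre1, Cd68, Fcgr1, Mertk and Spi1) had reads in every library, with summed levels of 86274.5, 84429 and 73905 at 0, 4 and 24 h. Under that sum Mertk, a receptor for dying cells, was 6.31-fold lower and Fcgr1, which encodes the sorted marker CD64, 2.92-fold higher at 4 h than at 0 h, and Mertk was 3.30-fold lower at 24 h. The 15 alveolar macrophage markers summed to 816845, 308820 and 469456 at 0, 4 and 24 h. Chil3 alone held 601110, 209378 and 310123 of these. At 4 h 13 of the 15 were at least 2-fold lower than at 0 h, beside 14.3% of all genes. At 24 h 1 of the 15 was that much lower than at 0 h (8.85% of all genes), with a median log2 ratio of -0.58. The 10 classical monocyte markers summed to 111318, 484357 and 92915, with 9 of 10 at least 2-fold higher at 4 h, beside 15.2% of all genes. At 24 h 7 of the 10 were still past 2-fold above 0 h (4.76% of all genes), with a median log2 ratio of 1.68 and Ccr2 5.31-fold higher. Fn1 alone was past 2-fold lower (8.85% of all genes), by 3.44-fold, from 87223 to 25383, which carried the sum. The neutrophil markers, 11 of the 12 listed having a value, summed to 5032.5, 39733 and 8141. Mmp8 and Csf3r had the largest of these levels at 4 h, 15128 and 10971. Each of the 10 with a value at both 0 and 4 h was at least 2-fold higher at 4 h, beside 15.2% of all genes. No value of Ly6g was used here. Camp, a defining granule gene, had no value at 0 h, 10 reads in the 4 h library and 34 in that of 24 h. At 24 h against 4 h, 9 of the 11 neutrophil markers were lower and 2 higher, Camp among the latter, with a median log2 ratio of -1.77. Lymphocyte markers summed to 45.8, 210.7 and 362. Only 3 of the 9 found had a value at 0 h, and missing values were summed as 0. Cd79b alone held 38.3, 77.4 and 185.7. Dendritic cell markers summed to 852, 3058 and 1088.8. Of the 6 with a value, 2 were past 2-fold higher at 4 h and 2 lower (15.2% and 14.3% of all genes). Their median log2 ratio was 0.14. Flt3 and Cd209a held 1225 and 1523 of the 4 h sum, while Clec9a and Itgae were 2.83-fold and 3.18-fold lower than at 0 h. Epithelial and endothelial markers summed to 13314, 15859 and 14866.5. Within that sum Scgb1a1, of club cells, had 90.6, 3977 and 105.2, and Epcam was 6.01-fold lower at 4 h. Erythroid markers summed to 51.4, 1129.7 and 1769. Xist, which is transcribed from the silenced X of females, had 13705 reads at 0 h and 4 or fewer in each later library, so the animals also differed in sex. The part of any of these in the results below was not tested, and in bulk RNA fewer cells of a type and less RNA per cell cannot be told apart.

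All 8 transcripts were more abundant at 4 h than at 0 h, and at 24 h they parted. Nlrp3 then stood far below its first level, and Casp1 and Pycard above theirs. When scaled on ribosomal protein genes, both Casp1 and Pycard were above by little (log2 ratios of 0.08 and 0.03). The 4 h ratios ran from 1.29-fold (Casp8) to 6.05-fold (Casp4), and the median log2 ratio was 0.65 against 0.00 over the 12512 genes measured in both libraries. A ratio of at least 2-fold was reached by 3 of 8 members upward (Casp4, Casp1 and Nlrp1b) and 0 downward, where 15.2% of all genes were that much higher and 14.3% that much lower. When libraries were scaled by their total reads, Casp4 alone stayed past 2-fold, beside 12.4% of all genes higher. Casp1 (log2 ratio 0.96) and Nlrp1b (0.86) then came just short. Casp4 was also the one member past 3-fold, as were 7.38% of all genes. At 24 h against 0 h, 1 of 8 was past 2-fold, Nlrp3, which was 5.93-fold lower, while 8.85% of 12310 genes were that much lower and 4.76% that much higher. At a threshold of 1.5-fold, 3 members passed (Nlrp3 and Nlrp1b lower, Casp1 higher), as did 32.4% of all genes in either direction. Against 4 h, the 24 h library had 3 of 8 past 2-fold, all lower (Nlrp3, Casp4 and Nlrp1b), beside 17.8% of 12578 genes lower and 14.3% higher. In the authors' deposited tables, whose log2 fold changes are shrunken toward 0, a value of at least 1 in size is held by Casp4 at 4 h against 0 h (17.9% of all genes), by Nlrp3 at 24 h against 0 h (2.68%), and by Nlrp3, Casp4 and Nlrp1b at 24 h against 4 h (17.4%).

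**Figure D1:**
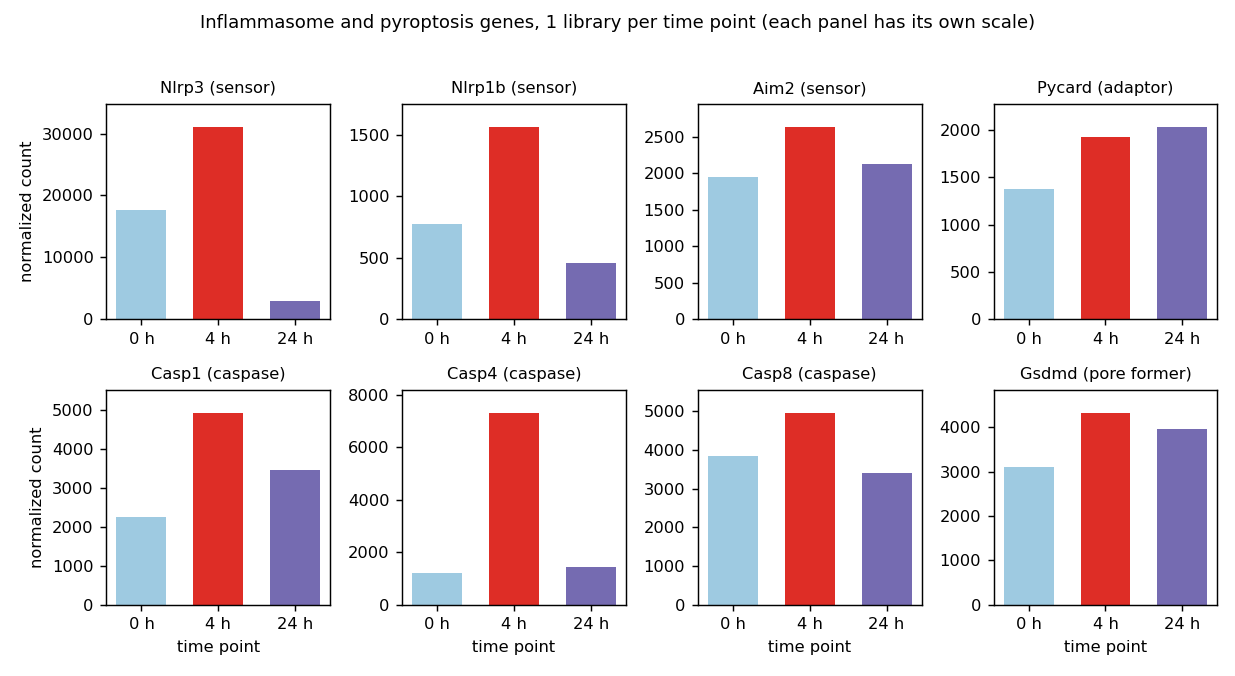
Normalized counts (vertical axis, from 0) of the 8 genes at 0, 4 and 24 h (horizontal axis), 1 library per bar and each panel on its own scale. The 4 h bar is the tallest in every panel except that of Pycard, and Nlrp3 has 31048 at 4 h and 2985 at 24 h.

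Nlrp3, the sensor that responds to potassium efflux and many forms of membrane or organelle damage (chromosome 11, 59542686 to 59566956, plus strand, mm10), was the most abundant of these transcripts per kilobase at 0 and 4 h. Its normalized counts were 17700.2, 31048 and 2985 in the 0, 4 and 24 h libraries. The 0 and 4 h libraries were both high and the 24 h library stood far below them. The 4 h level was 1.75-fold that at 0 h, with a 95% interval of 1.72 to 1.79, and the 24 h level was 10.4-fold below that at 4 h (a ratio of 0.0961, interval 0.0928 to 0.0996) and 5.93-fold below that at 0 h (5.72 to 6.15). These intervals, like all those given here, are exact binomial (Clopper-Pearson) intervals from the 2 read counts, and hold no biological spread. The log2 ratio of Nlrp3 at 24 h against 0 h ranked at percentile 0.845 of all genes, that is among the lowest 1%. In the authors' deposited table that difference is -1.46.

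Nlrp1b, the sensor that anthrax lethal factor activates by cleavage in some mouse strains (chromosome 11, 71153102 to 71201456, minus strand), was the scarcest member on every scale used. Its 829, 1233 and 561 reads gave normalized counts of 774, 1565 and 461 (0, 4 and 24 h). The order of the libraries was thus that of Nlrp3, with 4 h highest and 24 h lowest. The 4 h level was 2.02-fold that at 0 h (1.85 to 2.21), and the 24 h level was 3.40-fold below that at 4 h (3.07 to 3.76) and 1.68-fold below that at 0 h (1.51 to 1.87). Nlrp1b has a close paralog beside it, Nlrp1a, and how reads that match both were counted is not given in the sources used here. Nlrp1a itself had 302, 1379.8 and 323 normalized counts.

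Aim2, which binds double-stranded DNA in the cytosol (chromosome 1, 173420604 to 173466036, plus strand), varied little. It stood at 1954, 2633 and 2134 normalized counts at 0, 4 and 24 h, a spread of 1.35-fold between the highest and the lowest library. The 4 h library was the highest, 1.35-fold above 0 h (1.27 to 1.43). The difference between 24 h and 0 h was 1.09-fold (1.03 to 1.16), and it changed sign, to a log2 ratio of -0.41, when the libraries were scaled on ribosomal protein genes. Thus the 3 sensors did not move alike: at 24 h against 0 h their log2 ratios were -2.57 for Nlrp3, -0.75 for Nlrp1b and 0.13 for Aim2.

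Pycard encodes ASC, the adaptor that NLRP3 and AIM2 share (chromosome 7, 127991373 to 127993867, minus strand). Its levels in the 3 libraries, in time order, were 1374, 1926 and 2031 normalized counts. It was the one member whose highest level came at 24 h, although 24 h and 4 h differed by 1.05-fold with an interval that included 1 (0.989 to 1.13) and in the other direction, by -0.46 on the log2 scale, when scaled on ribosomal proteins. Against 0 h the 24 h level was 1.48-fold higher (1.39 to 1.58), a log2 ratio of 0.56 that came to 0.03 on ribosomal proteins.

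Casp4 encodes caspase-11 (chromosome 9, 5308849 to 5336791, plus strand), and it begins 1567 bases past the end of Casp1, its neighbour on the same strand. It had the largest ratio of the 8 at 4 h. It had 1207.5, 7308 and 1431 normalized counts in time order. The 4 h library was high and the other two were low and close to each other. The 4 h level was 6.05-fold above 0 h (5.70 to 6.43), at percentile 97.2 of all genes, and 5.11-fold above 24 h (4.84 to 5.39). The remaining difference of 24 h against 0 h was 1.18-fold (1.10 to 1.27), with the opposite sign (-0.29 on the log2 scale) under scaling on ribosomal proteins. The authors' deposited table gives a log2 fold change of 1.87 for 4 h against 0 h.

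Casp1, the protease of the canonical inflammasome (chromosome 9, 5298517 to 5307281, plus strand), had 2259, 4916 and 3443 normalized counts. It was again highest at 4 h, and its 24 h level lay between the other 2. The 4 h level was 2.18-fold that at 0 h (2.07 to 2.29), and the 24 h level was 1.52-fold that at 0 h (1.45 to 1.60), a log2 ratio of 0.61 that shrank to 0.08 under scaling on ribosomal proteins.

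The 2 adjacent caspase genes and Nlrp3 are shown here by the 250 bases before their transcription start. They were chosen because their RNA ran so differently over the same libraries, and any part of these bases in that was not tested. The sequences are RefSeq's on GRCm38.p6, written 5′ to 3′ on the gene's own strand, which for all 3 is the plus strand. Capitals mark matches to the kappaB consensus, the site bound by NF-kappaB, a transcription factor that LPS activates.
Casp4, chr9:5308599-5308848: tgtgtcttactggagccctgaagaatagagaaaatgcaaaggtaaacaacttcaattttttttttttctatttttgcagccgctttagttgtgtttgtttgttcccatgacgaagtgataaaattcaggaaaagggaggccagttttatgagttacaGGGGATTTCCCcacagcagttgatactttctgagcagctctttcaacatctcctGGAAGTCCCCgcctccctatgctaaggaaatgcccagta
Casp1, chr9:5298267-5298516: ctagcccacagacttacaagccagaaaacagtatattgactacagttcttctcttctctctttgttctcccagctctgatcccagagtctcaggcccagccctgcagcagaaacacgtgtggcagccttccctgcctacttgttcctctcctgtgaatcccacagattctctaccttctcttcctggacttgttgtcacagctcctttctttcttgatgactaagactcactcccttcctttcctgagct
Nlrp3, chr11:59542436-59542685: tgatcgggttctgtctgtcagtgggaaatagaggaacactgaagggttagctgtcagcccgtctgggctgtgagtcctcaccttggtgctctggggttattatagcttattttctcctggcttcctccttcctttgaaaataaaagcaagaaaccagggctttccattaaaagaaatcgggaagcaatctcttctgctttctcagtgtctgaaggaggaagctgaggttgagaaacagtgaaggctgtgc

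Casp4 had matches to the kappaB consensus at 2 separate places, 93 to 83 and 39 to 30 bases before the start, the first made of 2 overlapping matches. The window searched was the one nearest the deposited gene start. No match stood in the windows so chosen for the other 6 members for which a promoter was found (Nlrp3, Casp1, Pycard, Aim2, Nlrp1b and Casp8), while 7.25% of 32841 promoters of the same length held one on either strand. The table holds a second promoter for Nlrp3, whose start lies 1117 bases from the first and whose window had 1 kappaB match, for Nlrp1b (29277 bases away, no match) and for Casp4 (11 bases away, the same number of matches). The Casp8 window belongs to a start 7128 bases from the deposited one. Gsdmd had no promoter entry. Neither the interferon-stimulated response element, searched as GAAA repeated after any 2 bases, nor the STAT site TTCNNNGAA was present on either strand in any of these windows, the second ones included, against 2.98% and 7.02% of all promoters. These letters describe the windows and say nothing on which factors bound in these cells.

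Casp8, the protease of death receptors that can also cleave gasdermin D and interleukin-1 beta (chromosome 1, 58795374 to 58847503, plus strand), had 3837, 4954 and 3409 normalized counts. Its 3 libraries lay within 1.45-fold of each other. The 4 h level was 1.29-fold that at 0 h (1.24 to 1.35), the smallest such ratio of the members, and the 24 h level was 1.13-fold below that at 0 h (1.08 to 1.18).

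Gsdmd, the pore former on which the caspases converge (chromosome 15, 75862339 to 75867404, plus strand), also lay in a narrow range. It had 3099, 4323 and 3957 normalized counts, so both later libraries stood above the first. The ratios to 0 h were 1.39-fold at 4 h (1.33 to 1.46) and 1.28-fold at 24 h (1.22 to 1.33), and the latter became -0.18 on the log2 scale when the libraries were scaled on ribosomal proteins. Thus Gsdmd, Pycard, Aim2 and Casp8 each stayed within 1.48-fold between their highest and lowest libraries, whereas Casp1 spanned 2.18-fold, Nlrp1b 3.40-fold, Casp4 6.05-fold and Nlrp3 10.4-fold. Scaled on ribosomal proteins, Casp8 too passed 2-fold at 24 h against 4 h, with a log2 ratio of -1.07.

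**Figure D2:**
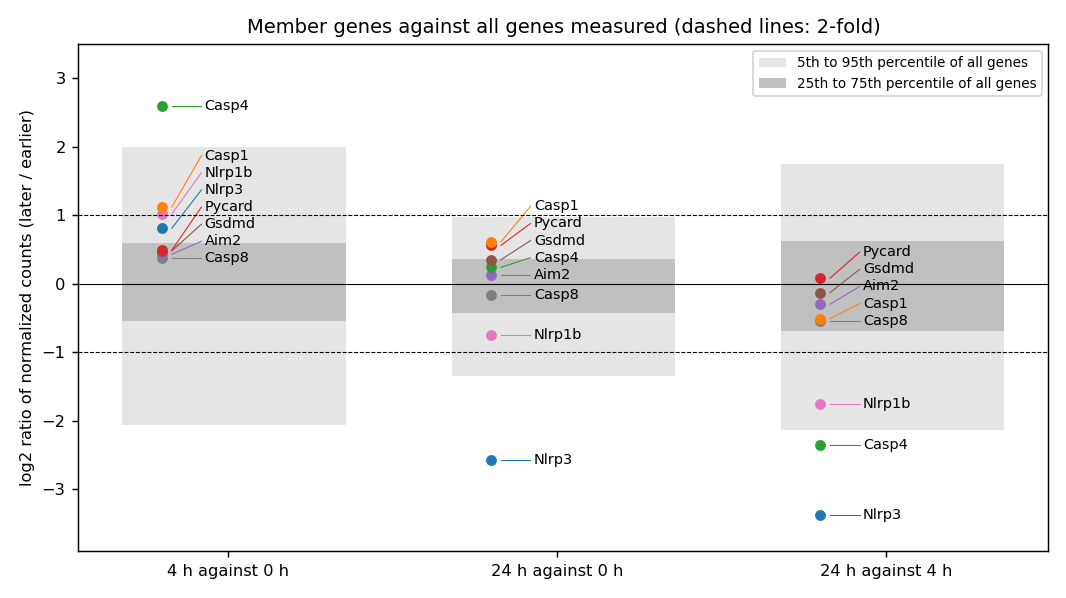
Log2 ratios of normalized counts (vertical axis, later over earlier library) of the 8 genes in the 3 comparisons (horizontal axis), drawn over the 25th to 75th (dark) and 5th to 95th (light) percentiles of all genes, with dashed lines at 2-fold. Casp4 lies above the light band at 4 h against 0 h (2.60) and below it at 24 h against 4 h (-2.35). Nlrp3 lies below it at 24 h against both 0 h (-2.57) and 4 h (-3.38).

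Levels of different genes were compared per kilobase of exon, using GENCODE vM21 exons that fall inside each deposited location. On this scale, normalized counts per kb, Nlrp3 was first at 0 h with 4402, 2.52-fold above the next gene, Gsdmd (2.43 to 2.62). It was first again at 4 h with 7722, where Casp4 had moved from sixth place to second with 5092.5. At 24 h Nlrp3 was seventh of 8 with 742, and Casp1 with 2299.9 and Gsdmd with 2228 led. Those 2 did not differ beyond counting error (ratio 1.03, 0.990 to 1.08), nor did Casp1 and Casp8 at 0 h (1.02, 0.966 to 1.07). At 24 h Aim2, Casp4 and Pycard formed a run of near-equal levels, 1026.5, 997 and 951, in which neighbours did not differ beyond counting error either. Among all genes with a length, Nlrp3 ranked at percentiles 96.8, 98.1 and 79.6 in time order, and Gsdmd at 91.0, 93.4 and 93.2. The annotation behind the counts is not given, so these lengths are approximate, most of all for Nlrp1b and Pycard, whose GENCODE transcripts reach beyond the deposited location.

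**Figure D3:**
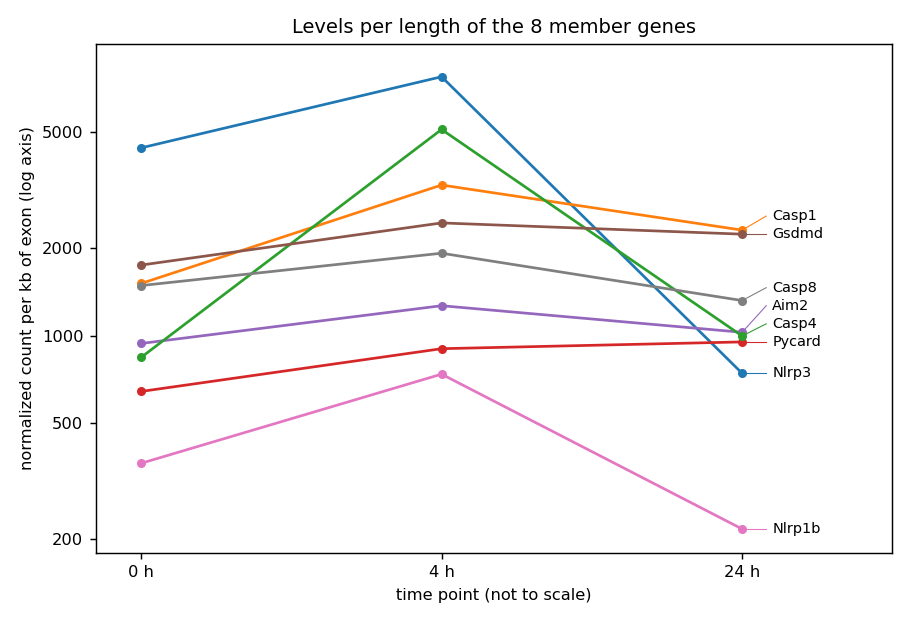
Normalized counts per kb of exon (vertical axis, log scale) of the 8 genes at 0, 4 and 24 h (horizontal axis, not to scale), 1 library per point. Nlrp3 crosses from first place at 4 h (7722) to seventh at 24 h (742), while Casp1 and Gsdmd end highest.

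Ratios between 2 genes inside a library do not depend on how libraries are scaled, and 3 pairs, picked after their values were seen, are given for that reason. Casp4 had 0.535 reads per read of Casp1 at 0 h (0.499 to 0.572), then 1.49 (1.43 to 1.55) and 0.416 (0.393 to 0.440). The caspase of the noncanonical route thus outnumbered its neighbour in reads at 4 h and in neither other library. Nlrp3 had 12.9 reads per read of its adaptor Pycard at 0 h (12.2 to 13.6), then 16.1 (15.3 to 17) and 1.47 (1.40 to 1.55). For the cytokine substrates, Il1b had 8.54 reads per read of Il18 at 0 h (8.34 to 8.75), then 96.5 (92.6 to 100.7) and 8.81 (8.60 to 9.02). The ratios of the caspases and of the cytokines were high at 4 h alone, while that of Nlrp3 to Pycard was high at both 0 and 4 h.

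**Figure D4:**
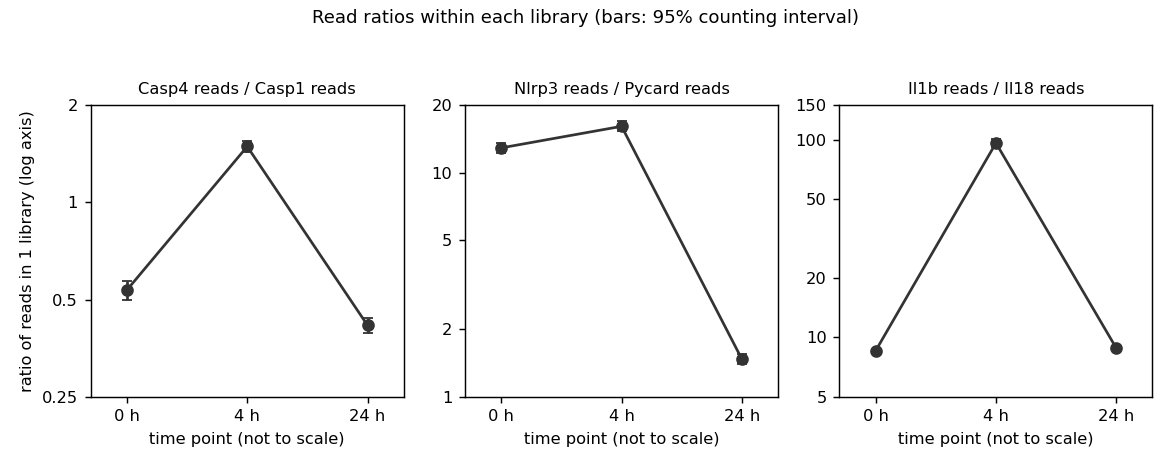
Ratio of reads of 2 genes within each library (vertical axes, log scale, each panel its own) at 0, 4 and 24 h (horizontal axis, not to scale), with 95% counting intervals as bars. Casp4 over Casp1 and Il1b over Il18 peak at 4 h (1.49 and 96.5), and Nlrp3 over Pycard is 1.47 at 24 h.

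The rest of the pathway was read from 6 further lists, of which 63 genes had a value. At 4 h against 0 h, 30 of the 63 were past 2-fold upward and 5 downward (15.2% and 14.3% of all genes), with a median log2 ratio of 0.80. At 24 h against 0 h the counts were 5 and 7 (4.76% and 8.85% of all genes) with a median of -0.13, and at 24 h against 4 h they were 5 and 32 (14.3% and 17.8%) with a median of -1.05. Scaling on ribosomal proteins made the counts at 24 h against 0 h 3 higher and 15 lower, which is 23.8% of the 63 lower beside 23.5% of all genes.

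Among 13 other sensors, 4 were at least 2-fold higher at 4 h and 1 lower (15.2% and 14.3% of all genes). The median log2 ratio was 0.41. Mefv, which encodes pyrin, the sensor of blocked RhoA signalling, went from 1150.5 normalized counts at 0 h to 11271 at 4 h and back to 937 at 24 h, 9.80-fold higher at 4 h (9.23 to 10.4). Nlrp12 had the widest ratio from few reads, 4 at 0 h and 115 at 4 h, 39.1-fold (14.9 to 145.9). Naip1, of the family that detects bacterial needle proteins and flagellin, was 4.32-fold lower (2.48 to 8.04), from 88 reads to 15. Its larger relatives Naip2 and Naip5, and Nlrc4, the protein they activate, stayed within 2-fold, with 1.22-fold, 1.30-fold and 1.33-fold at 4 h. The Naip genes are close paralogs, so the split of reads among them is uncertain.

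Of 13 partners in priming, activation and licensing, 5 were at least 2-fold higher at 4 h and 1 lower (median 0.63). Over all genes, 15.2% were that much higher and 14.3% that much lower. Gbp5 and Gbp3, interferon-induced GTPases of the family that coats bacteria and exposes their LPS to caspase-11, were 8.21-fold (7.68 to 8.77) and 6.31-fold (5.83 to 6.85) higher. Gbp5 then stood at 460.2 normalized counts at 24 h against 970.3 at 0 h. Txnip, a thioredoxin-binding protein that can bind NLRP3, ran the other way, at 14936, 2829 and 13498, 5.28-fold lower at 4 h (5.05 to 5.52). Nek7, the kinase that NLRP3 needs for assembly, and P2rx7, the ATP-gated channel upstream of it, differed little at 4 h, by 1.13-fold and 1.04-fold.

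The 2 cytokines that caspase-1 matures differed in opposite directions at 4 h. Il1b stood at 59938, 277788 and 54949 normalized counts, 4.63-fold higher at 4 h (4.59 to 4.68). Il18 stood at 7019, 2878 and 6238, 2.44-fold lower at 4 h (2.33 to 2.56). Of the 7 genes of substrates and their inhibitors, 4 were at least 2-fold higher at 4 h and 1 lower (median 1.29). The shares over all genes were 15.2% and 14.3%. Highest of the 7 was the decoy receptor Il1r2 at 12-fold (10.3 to 14.2). At 24 h against 0 h 2 of the 7 were past 2-fold, both lower, beside 8.85% of all genes lower and 4.76% higher. They were Il1a, the alarmin interleukin-1 alpha, by 7.09-fold (6.85 to 7.34) and Il1rn, the receptor antagonist, by 3.33-fold (3.23 to 3.43).

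Of 12 caspase and inflammasome inhibitors, 9 were at least 2-fold higher at 4 h and 1 lower, beside 15.2% and 14.3% of all genes. The median log2 ratio was 1.64 (1.04 by the authors' deposited table). Serpinb2, a serine protease inhibitor of activated monocytes and macrophages, was 26.7-fold higher (21.4 to 33.7), with 77, 2042 and 30.4 normalized counts in the 3 libraries. Pydc4, a pyrin-domain gene of the interferon-inducible cluster that holds Aim2, was 26.4-fold higher (20.1 to 35.3). Serpinb1a, which restrains caspase-1 and neutrophil proteases, was 4.35-fold lower (4.00 to 4.73), at 3651, 840.3 and 3151. Cflar, which encodes the inhibitor of caspase-8 c-FLIP, stood at 5686, 13501 and 1791, higher at 4 h and lowest at 24 h.

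Of 5 other pore and membrane rupture genes with a value, 3 were at least 2-fold higher at 4 h and 0 lower (median 1.39). The shares over all genes were 15.2% and 14.3%. Gsdme, listed as Dfna5, a gasdermin opened by caspase-3, was 5.23-fold higher (3.65 to 7.64) from 39 reads, and Mlkl, the executioner of necroptosis, was 2.65-fold higher (2.35 to 2.99). Ninj1, which ruptures the membrane after the pores have formed, stood at 1103, 2887 and 765. Of 13 partners of caspase-8 and of necroptosis, 5 were at least 2-fold higher and 1 lower (median 0.73), beside the same shares of all genes. Tnfsf10, the death ligand TRAIL, was 6.21-fold higher (5.05 to 7.69) and Zbp1, a nucleic acid sensor that engages RIPK3, 4.48-fold higher (4.25 to 4.73). Casp9, the protease of the apoptosome, was 2.18-fold lower (2.0 to 2.39). Fadd, the adaptor that recruits caspase-8, stood at 402, 223 and 378 normalized counts.

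**Figure D5:**
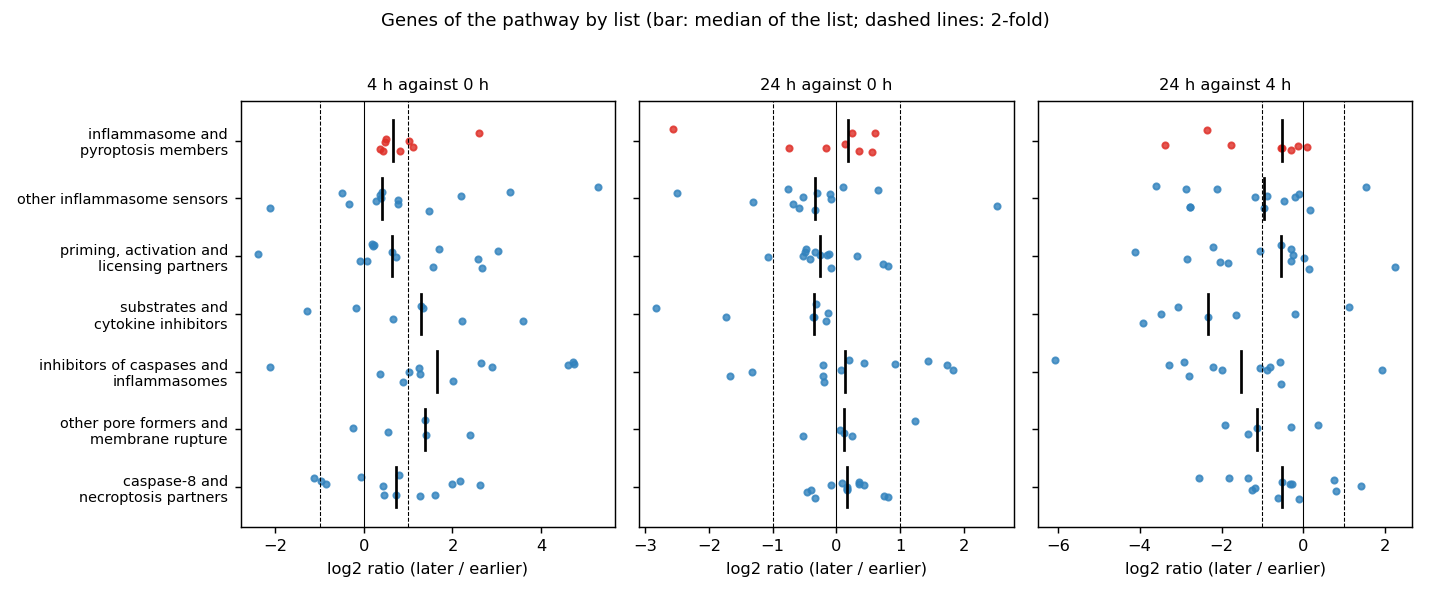
Log2 ratios of normalized counts (horizontal axis, later over earlier) of single genes (points) in the 8-gene set (red) and 6 further pathway lists (blue) for the 3 comparisons, with list medians as black bars and dashed lines at 2-fold. All 7 medians are above 0 at 4 h against 0 h (0.41 to 1.64) and below 0 at 24 h against 4 h.

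The genes nearest to each member in pattern were taken as those with the smallest distance in the pair of log2 ratios to 0 h, among 9331 genes whose mean level reached 100 normalized counts. The measure rests on 3 libraries, so it describes their shape only. For Nlrp3 they were Arid5b (distance 0.112) and Klf7 (0.204), and Arid5b stood at 644, 1095.5 and 117 normalized counts. Casp4 was matched by Ednrb (0.076), an endothelin receptor, and Cmklr1 (0.146), the chemerin receptor, the latter at 422, 2394 and 463. For Casp1 the nearest were Unc13d (0.020) and Zswim7 (0.030), and for Nlrp1b Fem1c (0.032) and Rapgef2 (0.053). For the remaining members the nearest were Prpsap2 for Pycard (0.004), Xpot for Casp8 (0.006), Cfb for Gsdmd (0.009) and Fpr2 for Aim2 (0.015).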

How the data were processed

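RNA was sequenced from 3 samples of sorted lung macrophages, 1 per time point, and the time point in the labels set the group. Per the submitters' processing notes, the authors used DESeq2 and genome build mm10. Which aligner, counter and annotation were used is not given in the sources used here. The deposited signal values, in 3 tables of 2 libraries each, are reads scaled by a size factor of the pair. Dividing each column by its step gave whole reads, within 0.001, for 100% of values. Listed genes have a mean above 10 in the pair. The deposited log2 fold changes are shrunken toward 0, and the deposited p-values, which rest on 1 library per time point, were not used. With no residual degrees of freedom, no count model was run.

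In the table of 24 h against 0 h, 1 column is headed 4 h. Its reads equalled those of 0 h in 12310 of 12310 shared genes and those of 4 h in 66 of 12453. It was given to no sample, and 0 h levels are those of the earlier pair. The same table repeats 20 rows, which were dropped. Deposited starts count from 0 and are printed from 1.

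Levels are reads divided by median-of-ratios size factors (1.07 at 0 h, 0.788 at 4 h and 1.22 at 24 h). Ratios are plain, with 95% Clopper-Pearson intervals of counting error alone (without molecular identifiers, reads are not independent molecules). Past 2-fold is the call used. Total reads, ribosomal protein genes, TMM factors (edgeR 4.0.16), a pseudocount of 10, thresholds of 1.5-fold and 3-fold, a mean of at least 50 and the deposited fold changes were alternatives. GENCODE vM21 gave lengths for 97.9% of 12880 genes by symbol or synonym at the same location, and RefSeq (GRCm38.p6) gave promoters for 7 members. The steps were tested on simulated data. All members are named, plus, per list, the 2 genes furthest up and the 2 furthest down past 2-fold at 4 h, Il1b and Il18, and the 2 nearest patterns per member. Nlrp1a, Naip2, Naip5, Nlrc4, Nek7, P2rx7, Cflar, Ninj1, Fadd, Il1a and Il1rn were added after their values were seen, as were the pairs of genes set against each other within a library. The members and lists were chosen with earlier results of these data known.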

Additional observations from a re-analysis of the deposited data

How the results depend on the processing

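At 4 h against 0 h the members past 2-fold, 3 as reported, numbered 1 with libraries scaled to total reads, 1 by the authors' deposited log2 fold changes and 1 at a threshold of 3-fold, in each case Casp4. Over all genes, 12.4% were past 2-fold higher with total reads and 7.38% past 3-fold higher. A deposited value of at least 1 in size was held by 17.9%. TMM factors left 2, without Nlrp1b (14.6% of all genes higher). At 24 h against 0 h the 1 member past 2-fold became 2 when recentred on ribosomal proteins (23.5% of all genes lower). The addition was Nlrp1b at -1.28. At a threshold of 1.5-fold the count became 3 (32.4% of all genes in either direction). At 24 h against 4 h the 3 members became 5 on ribosomal proteins, which added Casp1 at -1.05 and Casp8 at -1.07, where 32% of all genes were past 2-fold lower against 17.8% as reported. The other settings tried gave counts within 1.5 times. Among the other pathway genes, the 12 past 2-fold at 24 h against 0 h were 3 by the authors' deposited fold changes (2.68% of all genes). Scaling to total reads moved every log2 ratio by -0.16, 0.17 and 0.32 in the 3 comparisons, and recentring on 76 ribosomal protein genes moved them by 0, -0.53 and -0.53. No member past 2-fold changed sign under the 5 alternatives. For the rescalings and the pseudocount this was fixed in advance, as no shift exceeded 0.53 in size and a pseudocount keeps the sign. Signs changed for 0 of 8 members at 4 h against 0 h, for 3 at 24 h against 0 h (Casp4, Aim2 and Gsdmd) and for 3 at 24 h against 4 h (Pycard, Aim2 and Gsdmd). No paired analysis was possible because each time point has 1 library, and for the same reason no library could be left out. Alternatives for the other pathway genes were chosen after seeing the data.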
